A study of Mus musculus with 12 samples.

Results

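The genes of the cytosolic ribosome were followed across 12 whole-heart RNA libraries from mice with and without Cited4 in their cardiomyocytes. Entries were chosen by symbol: Rpl or Rps followed by a digit, without pseudogene entries and without the S6 kinases, together with Rplp0, Rplp1, Rplp2 and Rpsa. Of the 93 entries with such a name, 87 had a mean of at least 1 CPM (a count per common library total, here without further scaling) over the libraries and form the set, out of 54178 gene entries in all and 13412 at that level. They comprise 31 proteins of the small subunit, 43 of the large subunit, 3 of the P stalk, 8 paralogs or retrocopies and 2 related proteins, Rps19bp1 and Rpl7l1, which are not part of the mature ribosome. The 6 entries below the minimum were Rpl10l, Rpl32l, Rpl39l, Rpl6l, Rps3a2 and Rps3a3, all at or under 0.173 CPM. Rps12l1 was a member through a single library: it held 521 counts in library 3 of the exercise-labelled Flox group and was listed at 0 elsewhere, so 86 members could be tested.

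A ribosome is built from a small subunit, which reads the mRNA, and a large subunit, which joins the amino acids. Each is assembled in the nucleolus with its own set of proteins, and the P stalk of the large subunit recruits the elongation factors. Many ribosomal protein mRNAs begin with a run of pyrimidines, the TOP motif, through which mTORC1 and Larp1 control their translation, so that a change in ribosome production need not show in the mRNA level. Heart and skeletal muscle carry a muscle-specific large-subunit paralog, Rpl3l, beside the ubiquitous Rpl3.

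Flox mice carried Cited4 flox/flox alleles. KO mice came from crossing them with aMHC-cre mice, in which cre is expressed in cardiomyocytes, so other heart cells keep the gene, and a group with cre and intact alleles was not analysed here. Mice of each genotype were labelled exercise, for wheel running of their own accord over 8 weeks, or sedentary. The 4 groups, 3 libraries each, are called Flox-Sed, Flox-Ex, KO-Sed and KO-Ex after these words. Neither age nor sex was found in the labels, which also name no animal behind a library, so the tests take their error from differences among libraries that may be technical. The bracketed codes of the titles use the letters E and S the other way round from the treatment words, and groups follow the words. If the codes were right, every Ex over Sed direction and the interaction would turn, and the genotype comparisons would exchange names.

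In what follows, levels given library by library for members and for Cited4, all log2 CPM values and all marker means are CPM after TMM scaling, which adjusts the library totals for differences in composition. Values per kilobase, mean levels of genes beside their copies and the levels of single marker genes are CPM of the unscaled totals.
Libraries held 17465432 to 20467300 estimated counts, with 20.9% to 27.2% on the 13 mitochondrially encoded genes. Cited4 was at 10.1 to 23.9 CPM in the 6 Flox libraries and at 0 to 0.241 CPM in the 6 KO libraries. Cardiomyocyte markers were high in all libraries, with Myh6, the main myosin heavy chain of the adult mouse heart, at 20866 to 28792 CPM. The libraries were not alike in atrial tissue: the mean of the 11 atrial markers ran from 2.57 to 9.63 log2 CPM, and it was above 6 in Flox-Sed 3, Flox-Ex 2, all 3 KO-Sed and KO-Ex 1 and 3. The mean of the adipocyte markers was 2.93, 3.15 and 3.82 log2 CPM in KO-Sed and at most 0.49 in the other 9 libraries. Myl7 is an atrial contractile gene, and Sln encodes a regulator of the calcium pump. They were at or near 0 in the atria-poor libraries and reached 2758 and 935 CPM in KO-Sed 3. In bulk RNA, fewer cells of a type and less RNA per cell cannot be told apart.

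Short windows at the transcription start were read for members whose start could be matched to RefSeq (GRCm38.p6), 65 of 87. They show a pyrimidine tract that many, but not all, of these members carry. The letters run from 10 bases before the annotated start to 20 bases from it, 5′ to 3′ on the gene's strand, with the longest pyrimidine run in capitals. They come from Rps6 (chr4:86857348-86857377, minus strand), whose product is phosphorylated by the S6 kinases, from Rpl35 (chr2:39005112-39005141, minus strand), from Rps18 (chr17:33955646-33955675, minus strand), from Rpl38 (chr11:114668570-114668599, plus strand) and, for contrast, from Rpl3l (chr17:24727816-24727845, plus strand).
Rps6: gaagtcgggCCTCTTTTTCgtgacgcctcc
Rpl35: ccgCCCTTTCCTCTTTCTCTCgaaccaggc
Rps18: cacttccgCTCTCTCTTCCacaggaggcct
Rpl38: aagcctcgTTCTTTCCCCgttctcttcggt
Rpl3l: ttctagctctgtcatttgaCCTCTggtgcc
The longest run was 18 bases in Rpl35, 11 in Rps18 and 10 in Rps6 and Rpl38, and each of these 4 runs lay across or beside the annotated start. In Rpl3l the longest run in the window was 5 bases and began after it. Rpl3l is not alone in this, as the shares below show that many matched members lack such a tract.

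A run of 7 or more pyrimidines on the sense strand within 30 bases of the start was present in 39 of the 65 matched members (60%) and in 33.8% of the 27025 genes in the RefSeq set. A run of 5 or more that covers the first transcribed base was present in 29.2% of members and 9.95% of all genes. Over the whole window from 250 bases before to 50 bases after the start, CGGAAGT, a core recognised by ETS-type factors, was found on either strand in 35.4% of members and 6.59% of genes. CACGTG, the E-box of Myc and the clock factors, was found in 7.69% and 7.24%, and TATAAA on the sense strand within 30 bases of the start in 6.15% and 2.2%. The 27025 genes were not limited to those expressed in these hearts, while the members were chosen with a minimum level, so the shares are not matched for expression. These are matches of letters and carry no evidence of binding.

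Per kilobase of mature transcript, the highest member was Rplp1, a P stalk protein, at 728 CPM per kilobase, followed by Rpl41, the shortest protein of the ribosome, at 703. Rps2, at the mRNA entry side of the small subunit, had 627 CPM per kilobase. Rps15, Rpl23a, Rpl36, Rpl13, Rplp0 and Rps29, also among the 10 highest, were at 537 down to 446. So proteins of both subunits and of the stalk stand at the top. Ribosomal proteins whose symbols fall outside the naming rule were of the same order: Fau, which encodes a fusion of a ubiquitin-like protein with Rps30, had 316 CPM per kilobase, and Rack1, a scaffold on the head of the small subunit, had 190. Lengths are of the shortest complete coding transcript whose coding part is as long as that of the annotation's principal transcript. Where the transcript so chosen is long, as in Rps20 with 3706 bases, the value per kilobase (42.9 CPM) depends on that choice.

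Together the 87 members took 1.37% to 2.28% of the counts of a library. In Flox-Sed the share was 1.67%, 1.47% and 1.45% in libraries 1, 2 and 3 (mean 1.53% ± 0.123, SD, n = 3). Flox-Ex had 1.54%, 1.97% and 1.87% (1.79% ± 0.222, n = 3). KO-Sed had 1.37%, 1.88% and 2.28% (1.84% ± 0.458, n = 3). In KO-Ex it was 1.47%, 1.55% and 1.73% (1.58% ± 0.135, n = 3). The lowest and the highest library of the whole set were both KO-Sed, and each group overlapped each other group. Exact 95% intervals on such a share cover counting error only and are narrow, 1.67% to 1.68% in Flox-Sed 1, so the spread lies between libraries and not in the depth. With the mitochondrially encoded genes left out of the total, the means were 2.01%, 2.38%, 2.35% and 2.09% in the same order of groups.

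**Figure D1:**
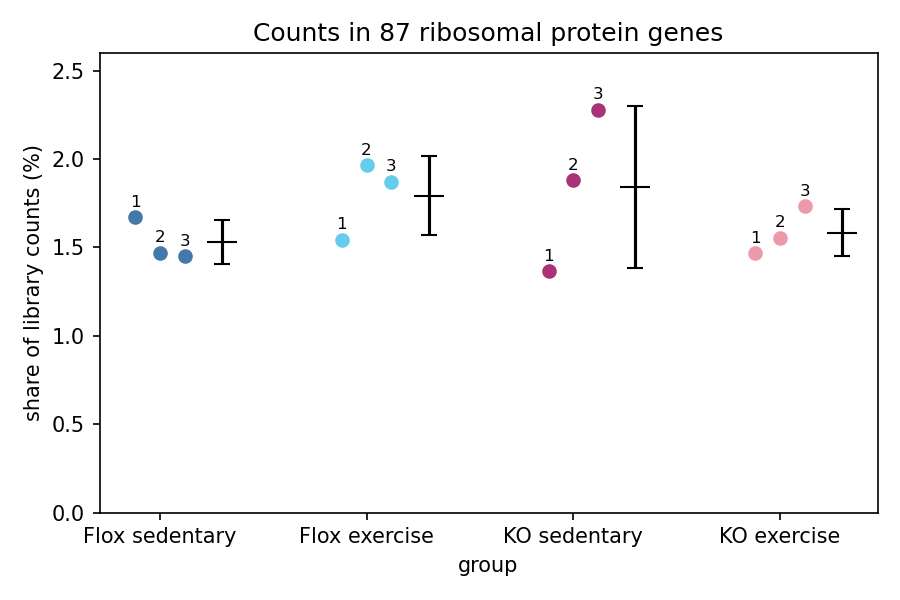
Share of library counts (%, y axis) in the 87 ribosomal protein genes, by group (x axis). Points are libraries with their replicate numbers and the bars are mean ± SD (n = 3). KO-Sed spans 1.37% to 2.28%, the full range of the 12 libraries.

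The members moved as a block from library to library. The median deviation of the 86 members from their own 12-library mean was 0.05, -0.12 and -0.16 (log2) in Flox-Sed 1, 2 and 3. It was -0.05, 0.17 and 0.34 in Flox-Ex. KO-Sed had -0.38, 0.02 and 0.33, and KO-Ex had -0.15, -0.05 and 0.01. In KO-Sed 1 only 4 of 86 members lay above their own median over the 12 libraries, while in KO-Sed 3, 79 did, and in Flox-Ex 3, 85. Small and large subunits, the stalk counted with the large, went together: the difference of their median deviations stayed between -0.04 and 0.04 in all 12 libraries.

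In KO-Sed 1 and Flox-Ex 3, members with short transcripts lay further from their means than those with long transcripts. Among the 28 shortest members (at most 570 bases) the median deviation in KO-Sed 1 was -0.47, against -0.29 for the 28 longest (at least 860 bases). In Flox-Ex 3 these values were 0.39 and 0.24. Well-expressed genes outside the ribosome showed the same order: the 58 with short transcripts stood at -0.40 in KO-Sed 1 and at 0.42 in Flox-Ex 3, and the 600 with long transcripts stood at 0.07 and -0.01. In KO-Sed 3 short and long members stood at 0.31 and 0.36, and short and long other genes at 0.02 and -0.24. The part of transcript length in the results below was not tested.

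**Figure D2:**
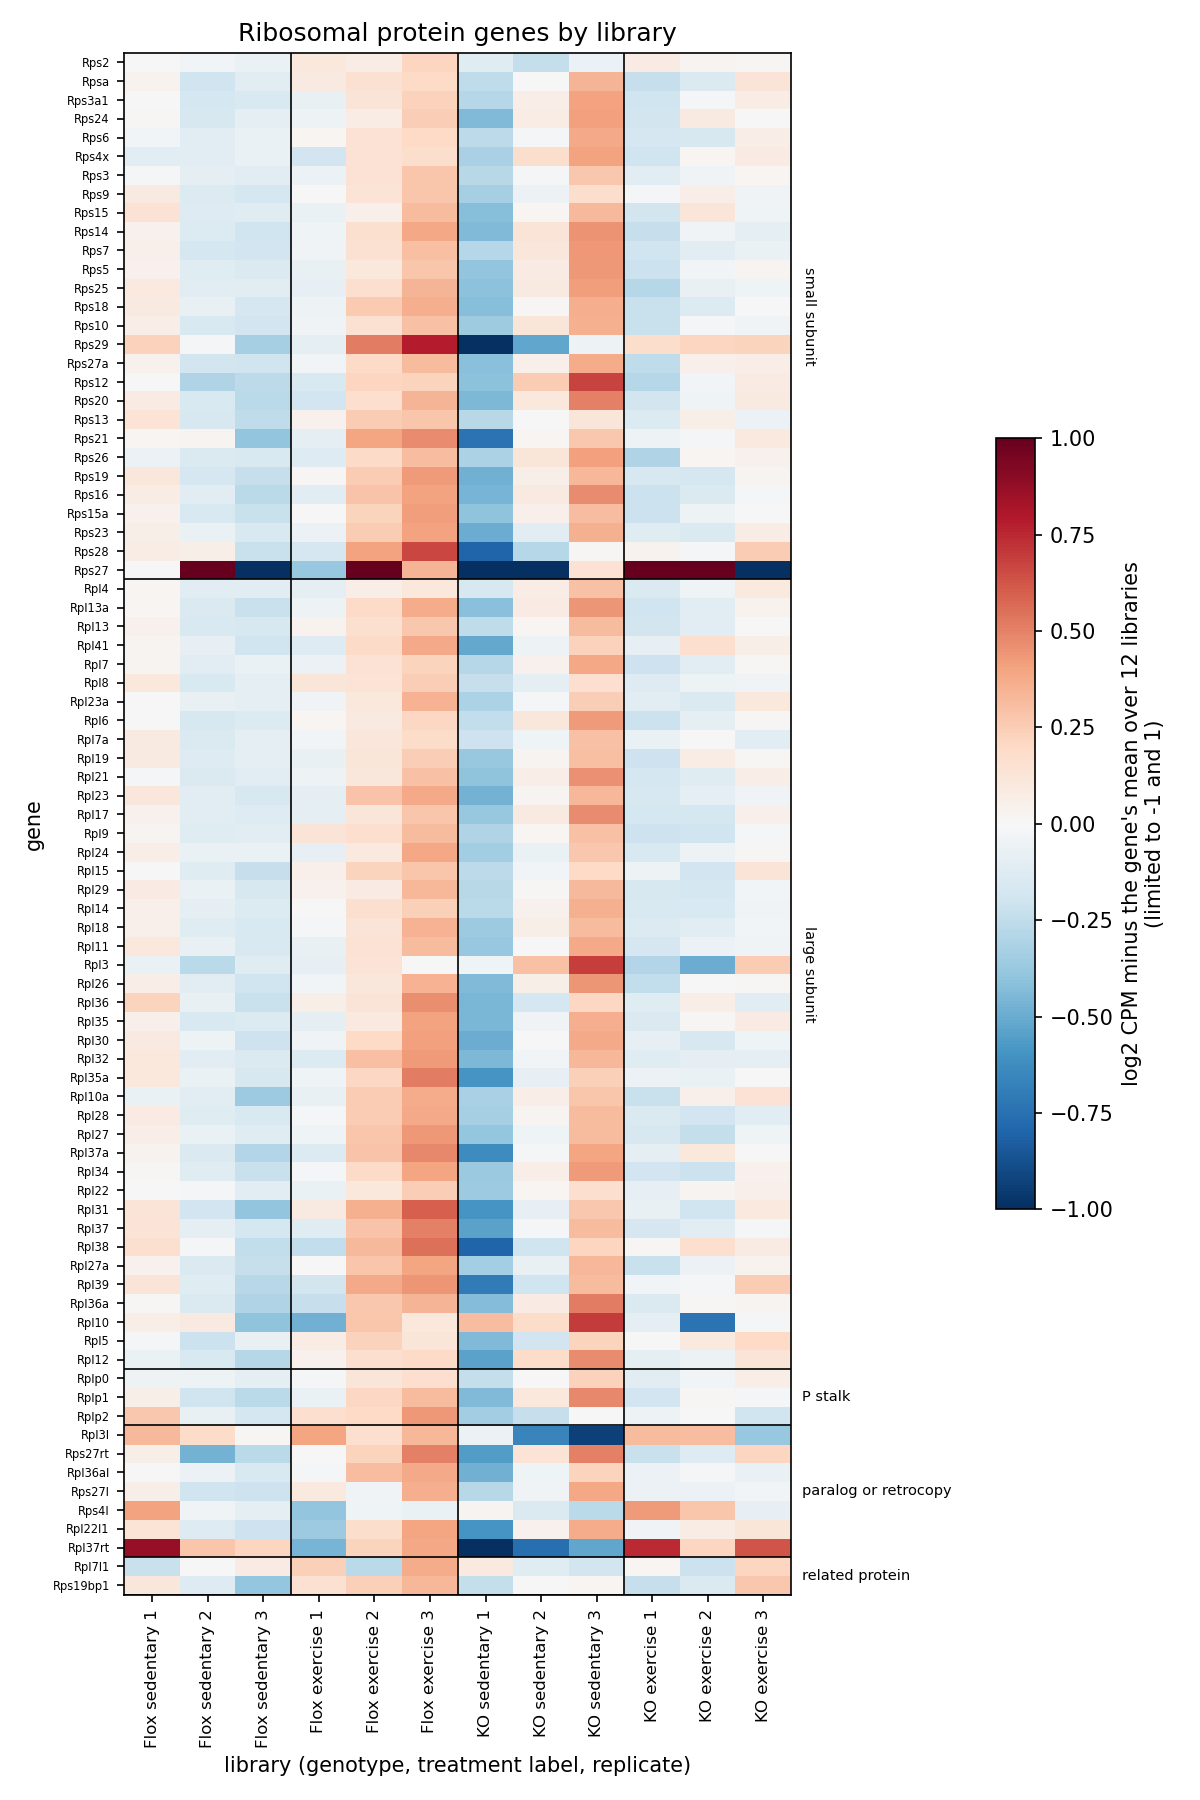
Log2 CPM (TMM-scaled) of each of 82 members minus its mean over the 12 libraries (colour, limited to -1 and 1), with genes in rows grouped by class and libraries in columns grouped by genotype and treatment label. Nearly whole columns share a colour, blue in KO-Sed 1 and red in KO-Sed 3 and Flox-Ex 3, while Rps27, Rpl37rt and Rpl3l leave the common pattern.

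The spread of a member within groups (SD of log2 CPM around the group means) had a median of 0.24 over the members and was largest in Rps27 at 1.77. The edgeR tests below do not use this SD but an estimate of spread fitted to the counts, with information shared across genes.

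KO-Sed was set against Flox-Sed to ask what the loss of Cited4 goes with in hearts without wheel running. No ribosomal protein gene passed an adjusted p of 0.05 in edgeR's quasi-likelihood test (0.125% of all 15226 genes did), 3 of 86 had an unadjusted p under 0.05 (13.5% of all genes), and DESeq2 called 1, Rpl37rt (2.59% of all genes under DESeq2). The log2 fold change was positive in 69 of 86 members with a median of 0.09, where the median of all genes was 0.00. Leaving out KO-Sed 3 gave a median of -0.08, and leaving out KO-Sed 1 gave 0.24. The omission of Flox-Sed 1 gave 0.16, that of Flox-Sed 3 gave 0.04, and the atrial markers as a covariate gave 0.01. Groups did not overlap for 2 members that were higher in KO, Rpl3 and Rpl10 (background 10.4%), and for 2 that were lower, Rpl3l and Rpl37rt (background 7.93%). Beside this, all 10 fibroblast markers were higher on average in KO-Sed (median log2 fold change 0.75), all 12 cardiomyocyte markers lower (median -0.34), and 8 of 9 adipocyte markers higher (median 5.32). All 10 macrophage (median 0.49), 5 of 6 smooth muscle (1.31) and 5 of 7 skeletal muscle markers (1.16) were higher as well, and so were all 11 atrial markers (2.76). In the skeletal muscle list Myh1, Myh2 and Myh4 were at 0.150 CPM or less and were not tested. Atp2a1, Tnnt3, Tnni2, Pvalb and Mylpf were at 4.51 CPM or less, so most of that list lay near the floor. Only Acta1 and Ckmt2 were at 22.2 CPM or more in all libraries. The fibroblast marker mean was 5.90 to 5.93 log2 CPM in Flox-Sed and 6.48 to 6.76 in KO-Sed, and the cardiomyocyte marker mean 12.27 to 12.35 and 11.74 to 12.07. The smooth muscle marker mean was 4.78 to 5.60 log2 CPM in Flox-Sed and 5.80 to 6.89 in KO-Sed, the macrophage mean 3.97 to 4.30 and 4.38 to 4.85, and the skeletal muscle mean 1.48 to 2.38 and 2.51 to 3.18. Those of the atrial markers, 2.59 to 6.81 and 6.44 to 9.63, overlapped, while those of the other 6 lists just named did not. The part of these cell types in the members' values was not tested.

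Rpl3 and Rpl3l encode alternative versions of a protein that reaches towards the peptidyl transferase centre, and they stood apart from the common pattern. Rpl3 (chr15:80077791-80091868, minus strand, 10 exons) was at 177, 153 and 169 CPM in Flox-Sed and at 174, 202 and 185 CPM in Flox-Ex. It was at 179, 226 and 298 CPM in KO-Sed and at 151, 131 and 220 CPM in KO-Ex. All 3 KO-Sed libraries thus lay above all 3 Flox-Sed ones, with library 1 above by a narrow margin.
Rpl3l (chr17:24727820-24736143, plus strand, 10 exons) was at 219, 198 and 177 CPM in Flox-Sed and at 229, 196 and 220 CPM in Flox-Ex. It was at 168, 110 and 91.3 CPM in KO-Sed and at 217, 216 and 134 CPM in KO-Ex. Here KO-Sed lay below every Flox library, and KO-Ex 3 was low as well.
KO-Sed over Flox-Sed, the log2 fold change of Rpl3l was -0.69 ± 0.22 (SE), with an adjusted p of 0.215 in edgeR's quasi-likelihood test, and that of Rpl3 was 0.49 ± 0.20, with an adjusted p of 0.305. Without KO-Sed 1, Rpl3l fell by 0.99 on the log2 scale and passed at an adjusted p of 0.024 in edgeR, in a fit that called 3.07% of all genes. When other libraries were left out, its adjusted p ran from 0.126 to 0.535. With the atrial markers as a covariate the values of Rpl3l and Rpl3 were -0.39 and 0.18.
Rpl10, a late-joining protein of the large subunit, was at 29.8, 30.2 and 21.5 CPM in Flox-Sed and 35.2, 32.3 and 46.1 CPM in KO-Sed. All KO-Sed libraries were higher, and the log2 fold change was 0.48 ± 0.23 (adjusted p = 0.401, edgeR). Rps12, on the beak of the small subunit, had 0.42 ± 0.22 (adjusted p = 0.426, edgeR), with 158, 128 and 131 CPM against 119, 188 and 252 CPM, so its groups overlapped.

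The share of Rpl3l in the counts of Rpl3 and Rpl3l together gives their balance within each library, free of scaling between libraries. Flox-Sed had 55.4%, 56.4% and 51.1% (54.3% ± 2.85, SD, n = 3), and Flox-Ex 56.9%, 49.2% and 54.3% (53.5% ± 3.90, n = 3). KO-Sed had 48.4%, 32.8% and 23.5% (34.9% ± 12.6, n = 3). KO-Ex had 59.0%, 62.3% and 37.9% (53.1% ± 13.3, n = 3). The 6 Flox libraries lay between 49.2% and 56.9%, while the KO libraries ranged from 23.5% to 62.3%, with 4 below all Flox libraries and 2 above them. Exact 95% intervals were 22.6% to 24.4% in KO-Sed 3 and 61.1% to 63.5% in KO-Ex 2, so the differences among KO libraries exceed counting error. The 3 libraries with the lowest share, KO-Sed 3 and 2 and KO-Ex 3, had atrial marker means of 9.63, 8.97 and 6.61 log2 CPM and fibroblast marker means of 6.76, 6.66 and 6.88. KO-Ex 1, with a share of 59.0%, had 7.46 and 6.23, and Flox-Ex 2, with 49.2%, had 7.71 and 6.84. The part of these cell types in the balance was not tested.

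**Figure D3:**
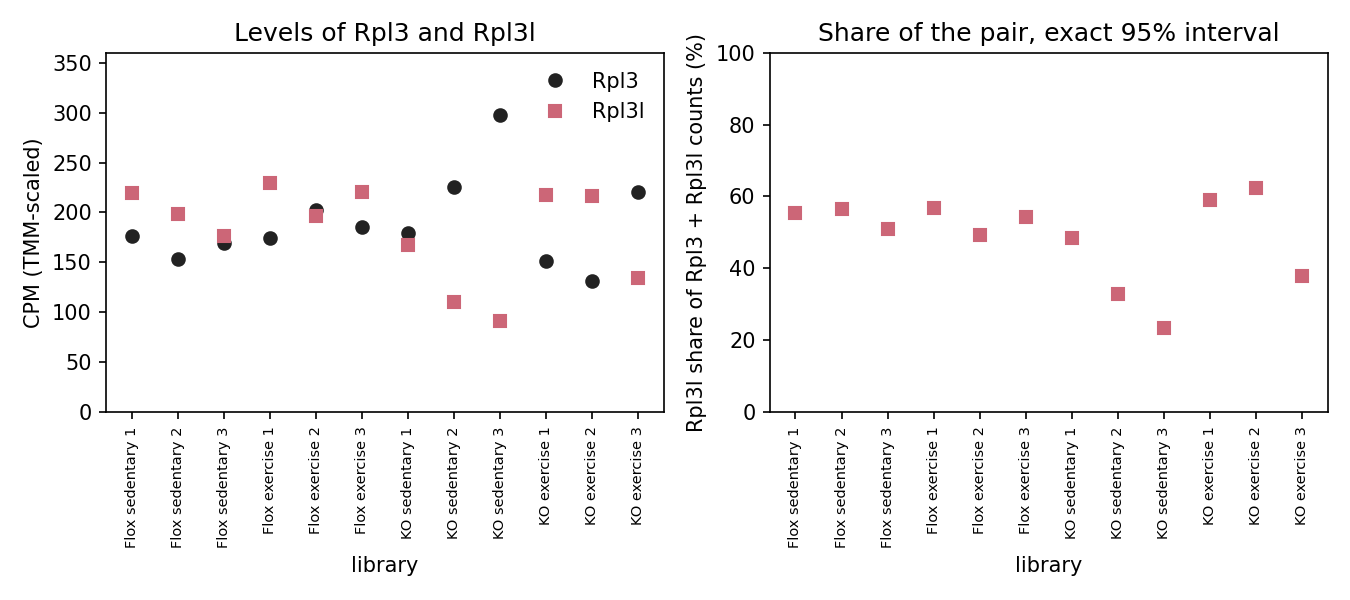
Left, TMM-scaled CPM (y axis) of Rpl3 (circles) and Rpl3l (squares) in each library (x axis). Right, the Rpl3l share (%) of the counts of both genes with exact 95% intervals, mostly smaller than the symbols. Shares lie between 49.2% and 56.9% in the Flox libraries and are 32.8% and 23.5% in KO-Sed 2 and 3.

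Next, KO-Ex was set against Flox-Ex to compare the genotypes after wheel running. No member passed in edgeR (0.00657% of all genes did), 5 of 86 had an unadjusted p under 0.05 (7.94% of all genes), and DESeq2 called none. The log2 fold change was negative in 83 of 86 members, with a median of -0.22 beside -0.01 for all genes. For 15 members, 17.4%, all KO libraries lay below all Flox libraries (background 7.23%), and for none above (background 7.61%). Among them were Rpl6, Rpl8, Rpl9, Rpl13, Rpl14, Rpl18, Rpl27, Rpl28, Rpl29, Rpl30 and Rpl36al of the large subunit and its paralogs, Rps7 and Rps15a of the small subunit, and Rplp2 of the stalk. The median was -0.13 without Flox-Ex 3 and -0.31 without Flox-Ex 1. All 10 endothelial markers were lower on average in KO-Ex as well (median -0.35), with a marker mean of 6.25 to 6.48 log2 CPM in KO-Ex and 6.60 to 6.88 in Flox-Ex, and their part was not tested.

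Rplp2, a P stalk protein, was at 171, 175 and 206 CPM in Flox-Ex and at 147, 153 and 133 CPM in KO-Ex. The groups did not overlap, and Flox-Ex 3 was the highest. Its log2 fold change was -0.35 ± 0.14 (adjusted p = 0.601, edgeR). Its partners in the stalk were closer together. Rplp1 had -0.22 ± 0.20 and Rplp0, the base of the stalk, -0.12 ± 0.13, with adjusted p-values in edgeR of 0.790 and 0.826. The lowest value of the set was that of Rpl31, a protein at the exit of the peptide tunnel, -0.42 ± 0.20 (adjusted p = 0.656, edgeR), with 127, 153 and 181 CPM in Flox and 113, 104 and 128 CPM in KO, and these ranges touched. Rpl27 and Rpl28, also of the large subunit, had -0.38 ± 0.17 and -0.36 ± 0.15, both with an adjusted p of 0.619 in edgeR. Rps4l, a retrocopy of the X-linked small-subunit gene Rps4x, went the other way at 0.38 ± 0.17 (adjusted p = 0.619, edgeR), with 14.6, 18.7 and 18.3 CPM in Flox and 25.8, 23.4 and 18.1 CPM in KO. The other positive values were those of Rps27 (0.65) and Rpl37rt (0.46), described below with their copies.

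The treatment labels were compared within Flox to see what wheel running goes with when Cited4 is intact. No member passed in edgeR, and none of all genes tested did (0%). Unadjusted p-values were under 0.05 for 3 of 86 members, Rpl10a, Rpl15 and Rpl31 (7.41% of all genes), and DESeq2 called none. The log2 fold change was positive in 83 of 86 members with a median of 0.24, where that of all genes was 0.01. For 12 members all Flox-Ex libraries lay above all Flox-Sed ones (background 7.5%), and for none below (background 6.57%). Among these were Rpsa, Rps2 and Rps6 of the small subunit, Rpl5, Rpl6, Rpl8, Rpl9, Rpl12 and Rpl15 of the large subunit, Rplp0 and Rps19bp1. The median was 0.15 without Flox-Ex 3. All 10 fibroblast and all 10 macrophage markers were also higher on average in Flox-Ex (medians 0.51 and 0.62), with fibroblast marker means of 6.10 to 6.84 log2 CPM in Flox-Ex and macrophage marker means of 3.97 to 4.30 in Flox-Sed and 4.22 to 5.36 in Flox-Ex, and their part was not tested. This comparison and that of KO-Ex with Flox-Ex share the Flox-Ex libraries, and 3 of these 12 members, Rpl6, Rpl8 and Rpl9, are also among the 15 above.

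Rpsa, known as the laminin receptor and part of the small subunit, was at 467, 397 and 421 CPM in Flox-Sed and 487, 507 and 525 CPM in Flox-Ex. Every Flox-Ex library lay above every Flox-Sed one, and the log2 fold change was 0.24 ± 0.15 (adjusted p = 0.760, edgeR). Rps6 was at 296, 279 and 289 CPM against 307, 335 and 346 CPM, a log2 fold change of 0.19 ± 0.15 (adjusted p = 0.798, edgeR). The largest values were those of Rpl31 at 0.50 ± 0.21, Rps29, a small zinc-binding protein of the small subunit, at 0.47 ± 0.26 and Rps27rt at 0.47 ± 0.24, with adjusted p-values in edgeR of 0.618, 0.718 and 0.700. The 3 lowest were Rps27 (-1.10), Rpl37rt (-0.39) and Rps4l (-0.27), the only negative members. Rps29 overlapped, with 195, 164 and 133 CPM in Flox-Sed and 155, 238 and 287 CPM in Flox-Ex.

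Within KO the same comparison was less uniform in sign. No member passed in edgeR (0.0197% of all genes did), 5 of 86 had an unadjusted p under 0.05 (10.6% of all genes), and DESeq2 called 1, again Rpl37rt (0.795% of all genes under DESeq2). The log2 fold change was positive in 23 of 86 members and the median was -0.09 (0.00 for all genes). Leaving out KO-Sed 3 gave 0.11, leaving out KO-Sed 1 gave -0.24 and leaving out KO-Ex 1 gave -0.05, and the atrial covariate gave -0.03. Without KO-Sed 1, edgeR called 2 members, Rpl37rt and Rpl3l (3.63% of all genes in that fit). Groups did not overlap for 3 members higher in KO-Ex, Rps2, Rps29 and Rpl37rt (background 5.82%), and for 1 that was lower, Rpl10 (background 7.31%). Rps29 was at 77.0, 116 and 161 CPM in KO-Sed and at 189, 193 and 194 CPM in KO-Ex, a log2 fold change of 0.70 ± 0.26 (adjusted p = 0.406, edgeR). The Ex values lay close together and the Sed values were spread. Rps2 was at 574, 530 and 600 CPM against 661, 637 and 630 CPM, a log2 fold change of 0.18 ± 0.11 (adjusted p = 0.558, edgeR). Rpl3l had 0.62 ± 0.22 and Rpl3 -0.49 ± 0.20, with adjusted p-values of 0.390 and 0.430 in edgeR. All 12 cardiomyocyte markers were higher on average in KO-Ex than in KO-Sed (median 0.26), and all 11 atrial and all 9 adipocyte markers were lower (medians -2.28 and -3.07). All 6 smooth muscle (median -0.82), all 5 erythroid (-0.39) and 9 of 10 endothelial markers (-0.26) were lower too. The marker means of KO-Sed and KO-Ex did not overlap for smooth muscle (5.80 to 6.89 against 5.23 to 5.72 log2 CPM), erythroid (6.55 to 6.78 against 6.13 to 6.35), endothelial (6.58 to 6.74 against 6.25 to 6.48) and adipocyte markers. For atrial (6.44 to 9.63 against 2.57 to 7.46) and cardiomyocyte markers they overlapped. The part of these cell types was not tested.

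The interaction asks whether the difference between treatment labels in KO differs from that in Flox. In edgeR no member and no gene of all passed (0%), 5 of 86 members had an unadjusted p under 0.05 (9.88% of all genes), and DESeq2 called Rpl37rt (0.329% of all genes under DESeq2). The interaction value was negative in 78 of 86 members with a median of -0.34, beside -0.02 for all genes. The median came to -0.13 when KO-Sed 3 was left out, to -0.48 when KO-Sed 1 was, and to -0.25 with the atrial covariate. The lowest was Rpl10, at -0.73 ± 0.33 (adjusted p = 0.503, edgeR), whose entry held a small part of its joint counts with the copies described below. With copies summed, the lowest was Rpl3, at -0.66. Rpl3 had -0.66 ± 0.28 and Rps12 -0.60 ± 0.31, with adjusted p-values of 0.491 and 0.536 in edgeR. Rpl9 had -0.44 ± 0.20 (adjusted p = 0.503, edgeR). Positive values were led by Rps27 (3.07), Rpl37rt (1.89) and Rps4l (0.61). All 10 fibroblast, all 10 macrophage, all 10 endothelial and all 11 atrial markers had a negative interaction value too, and their part was not tested.

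Averaged over the treatment labels, KO over Flox had a median of -0.06 (0.00 for all genes), with 17 of 86 members positive, none passing in edgeR (0.0525% of all genes did), 2 with an unadjusted p under 0.05 (11.6% of all genes) and none called by DESeq2. Those 2 were Rpl3l at -0.44 ± 0.16 and Rplp2 at -0.28 ± 0.10, with adjusted p-values of 0.321 and 0.320 in edgeR. The lowest values were those of Rps27 (-0.89) and Rpl37rt (-0.49), and the highest those of Rpl3 (0.17), Rps12 (0.12) and Rpl10 (0.11). Averaged over genotype, Ex over Sed had a median of 0.07 (0.00 for all genes), with 77 of 86 positive, none passing in edgeR (0.0263% of all genes did), 6 with an unadjusted p under 0.05 (8.45% of all genes) and none called by DESeq2. The highest was Rps29 at 0.58 ± 0.18 (adjusted p = 0.481, edgeR), and Rps28, another small protein of the small subunit, was at 0.39 ± 0.15 (adjusted p = 0.547, edgeR). Rpl37rt (0.55) and Rps27 (0.44) were high as well, and Rpl10 (-0.30) and Rpl3 (-0.16) were lowest. With the copies described below summed, Rpl3 was lowest, at -0.16. Leaving out 1 library at a time, the median for genotype ran from -0.15 to 0.01 and that for treatment from 0.00 to 0.17.

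**Figure D4:**
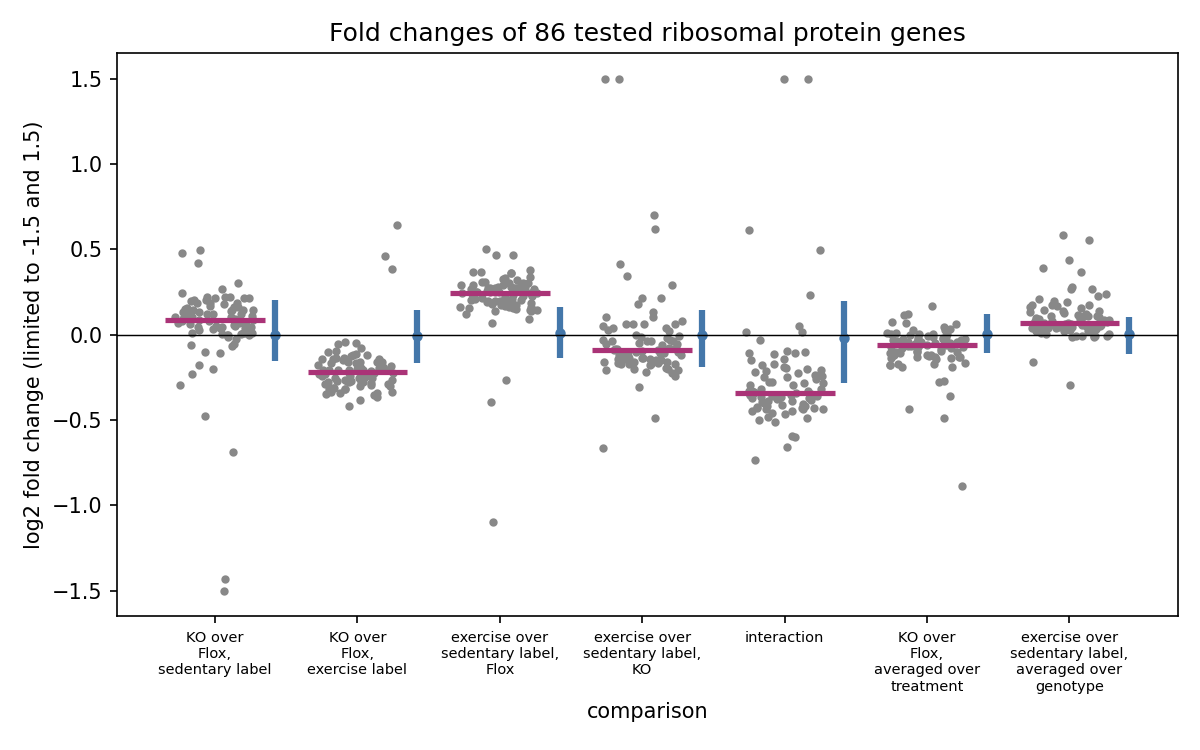
Log2 fold change (y axis, limited to -1.5 and 1.5) of each of the 86 tested members (grey points) in the 7 comparisons (x axis). Pink lines are the members' medians, and blue dots and bars are the median and the middle 50% of all 15226 genes. Members lie mostly above 0 for the treatment label in Flox (median 0.24) and below 0 for KO-Ex over Flox-Ex (median -0.22) and for the interaction (median -0.34).

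Retrocopies complicate the count of several members, since mouse ribosomal protein genes have left many processed copies in the genome and a read can be placed on either. A near-identical copy was defined as an entry with at least 95% identity over at least 80% of the coding bases. Of the 87 members, 79 had such a copy outside the set, 544 copies in all, of which 320 held counts. Copies that are members themselves, such as Rps27rt and Rpl37rt, are not in these figures. The copies outside the set held 7.17% of the joint counts, and they held over 10% for 14 members and over 50% for 5.
Rpl5, which with Rpl11 and the 5S rRNA can bind Mdm2, had a mean of 19.7 CPM, while Gm15500, identical over its coding bases, had 260 CPM. Rpl10 had 29.7 CPM, and Rpl10-ps3, also identical there, had 272 CPM. For Rpl12, at the base of the stalk, Gm10275 held 157 CPM and the copies together 94.0% of the joint counts. So for these 3 genes the entry under the gene's own name held a small part of the joint counts. It is that part which entered the fold changes and the counts of groups without overlap given above.

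**Figure D5:**
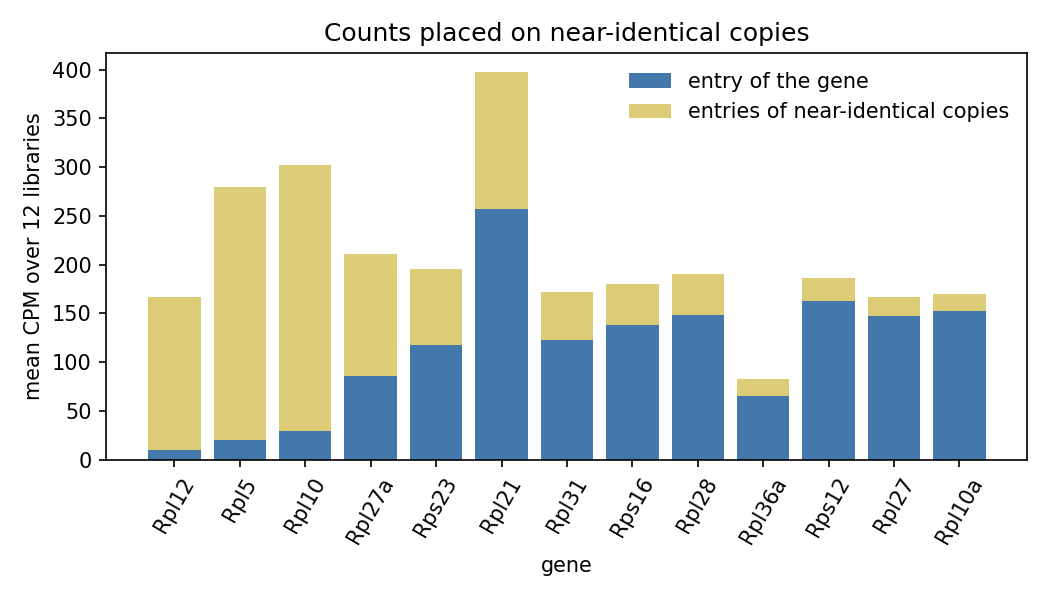
Mean CPM of the unscaled totals over 12 libraries (y axis) on the gene's own entry (blue) and on near-identical copies outside the set (yellow). Shown are 13 members with over 10% of the joint counts on these copies (x axis), and Rps12l1, at 2.17 CPM, is left out. Copies that are members themselves, such as Rps27rt, are not counted. Rpl12, Rpl5 and Rpl10 have nearly all their counts on copies, with 94.0%, 93.0% and 90.2%.

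The members with the most extreme fold changes were of this kind. Rps27 (chr3:90212522-90213651, minus strand, 4 exons), a zinc-binding protein of the small subunit, and its single-exon retrogene Rps27rt (chr9:114982366-114982739, minus strand) are identical over the 252 coding bases and share a stretch at the annotated start. That stretch of 19 bases is in capitals in the windows from 10 bases before to 20 bases from the start, Rps27 at chr3:90213629-90213658 and Rps27rt at chr9:114982720-114982749, both on the minus strand.
Rps27: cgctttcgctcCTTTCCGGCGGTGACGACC
Rps27rt: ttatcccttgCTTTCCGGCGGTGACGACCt
Rps27 was at 4.60, 36.2 and 1.21 CPM in Flox-Sed, at 3.54, 10.2 and 5.87 CPM in Flox-Ex, at 0.820, 1.88 and 5.11 CPM in KO-Sed and at 15.1, 14.6 and 1.07 CPM in KO-Ex. Rps27rt held 87.5 to 184 CPM in the same libraries, and the large swings of Rps27 occurred within groups. Between KO-Sed and Flox-Sed the log2 fold change of Rps27 was -2.42 ± 1.33 (adjusted p = 0.470, edgeR), and with all copies summed it was 0.16 ± 0.22 (adjusted p = 0.810, edgeR).

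Rpl37rt (chr5:115102923-115110268, minus strand), annotated as a transcribed processed pseudogene, differs little from Rpl37 of the large subunit, with 99.7% identity over 291 coding bases. It was at 14.1, 9.35 and 8.93 CPM in Flox-Sed and 5.53, 8.99 and 10.1 CPM in Flox-Ex. In KO-Sed it was at 2.07, 4.52 and 5.34 CPM and in KO-Ex at 13.0, 8.93 and 11.9 CPM. KO-Sed lay below all 9 other libraries. KO-Sed over Flox-Sed, the log2 fold change was -1.43 ± 0.33 (adjusted p = 0.108, edgeR, and 0.00268, DESeq2). For KO-Ex over KO-Sed it was 1.5 ± 0.33 (adjusted p = 0.182, edgeR, and 0.00245, DESeq2), and for the interaction 1.89 ± 0.45 (0.379 and 0.0180). Without KO-Sed 1 the first 2 values, then -1.14 and 1.21, passed in edgeR at adjusted p-values of 0.0474 and 0.0377. Rpl37 itself was at 125, 107 and 101 CPM in Flox-Sed and 78.3, 113 and 141 CPM in KO-Sed, which overlapped. With Rpl37rt, Rpl37 and the other copies summed, the value for KO-Sed over Flox-Sed was -0.08 ± 0.20 (adjusted p = 0.893, edgeR).

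With every gene summed with its copies, 84 families remained, and none passed in edgeR in any of the 7 comparisons. Their medians were 0.09 for KO-Sed over Flox-Sed and -0.22 for KO-Ex over Flox-Ex, 0.23 for the treatment labels in Flox, -0.10 in KO and -0.33 for the interaction. Groups did not overlap for 16 of 84 families (19%) that were lower in KO-Ex than in Flox-Ex and for none that was higher, beside 7.23% and 7.61% of all genes. For the treatment labels in Flox, 10 families (11.9%) were higher in all Flox-Ex libraries and none lower, beside 7.5% and 6.57% of all genes. Between KO-Sed and Flox-Sed it was 1 family in each direction (backgrounds 10.4% and 7.93%), and for the treatment labels in KO 2 were higher and none lower (5.82% and 7.31%). The family of Rpl10 had 0.38 ± 0.20 for KO-Sed over Flox-Sed (adjusted p = 0.437, edgeR), and its groups then overlapped.

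Among the other paralog pairs, Rpl36al held 43.7% to 52.3% of the counts of Rpl36a and Rpl36al in the 12 libraries, with the lowest group mean in KO-Sed (46.0% ± 2.05, SD, n = 3, against 49.9% ± 1.36 in Flox-Sed). In the other pairs, Rpl22l1 held 13.0% ± 1.09 of its pair with Rpl22, an RNA-binding protein of the large subunit, in Flox-Sed, and 13.1% ± 1.83, 13.2% ± 1.69 and 13.6% ± 0.110 in Flox-Ex, KO-Sed and KO-Ex (n = 3 each). Rpl7l1, a pre-ribosomal relative of Rpl7, held 12.5% to 13.98% in the group means. Rps4l held 3.85% to 8.98% of its pair with Rps4x. Rpl39l, known from the mouse testis, reached at most 0.234% beside Rpl39, and Rpl10l, also of the testis, was listed at 0 in all libraries.
Rps27l, a paralog of Rps27 and a p53 target in human cells, was at 39.3 to 62.3 CPM. Its log2 fold change for KO over Flox was 0.16 ± 0.15 in the Sed groups and -0.20 ± 0.15 in the Ex groups (adjusted p = 0.700 and 0.763, edgeR).

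The genes mutated in human Diamond-Blackfan anemia were taken as a list of 18 members, among them Rps19, the gene most often affected. None passed in any comparison in edgeR. Their medians were 0.07 and -0.24 for KO over Flox in the Sed and in the Ex groups, with 12 and 1 of 18 positive. For the treatment labels in Flox the median was 0.25, with 17 of 18 positive. All were close to the values of the whole set, but these genes are part of that set, so the closeness is no separate result. Rps19 was at 152, 125 and 119 CPM in Flox-Sed, 141, 166 and 188 CPM in Flox-Ex, 100, 146 and 176 CPM in KO-Sed and 125, 124 and 143 CPM in KO-Ex. Every pair of groups overlapped, as far as KO-Ex against Flox-Ex, where 143 CPM lay above 141 CPM.

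Fau and Rack1 gave values near those of the members. For the treatment labels in Flox the log2 fold changes were 0.23 ± 0.19 and 0.15 ± 0.13, and for KO-Ex over Flox-Ex -0.21 ± 0.19 and -0.15 ± 0.13. None passed in edgeR (adjusted p = 0.787 or above for these 4 values).

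Around the ribosome itself, no gene of the lists examined passed in any comparison in edgeR. Elongation factors and other TOP transcripts, 20 genes, had medians of 0.11 for the treatment labels in Flox and -0.06 for KO-Ex over Flox-Ex, smaller in size than those of the ribosomal proteins. Between KO-Sed and Flox-Sed the smallest p in that list belonged to Vim, an intermediate filament gene of non-muscle cells that is translated as a TOP mRNA, at 0.87 ± 0.20 (adjusted p = 0.0994, edgeR), and the next to Eef1a2, the muscle and nerve form of elongation factor 1A, at -0.46 ± 0.19 (adjusted p = 0.307, edgeR). Translation initiation factors, 35 genes, had medians of 0.02 and -0.01 in the same comparisons as above, and ribosome biogenesis factors, 42 genes, 0.04 and 0.01. Among the latter, Nop16, a nucleolar factor of large subunit assembly, had 0.35 ± 0.13 in Flox and 0.29 ± 0.13 in KO for the treatment labels (adjusted p = 0.581 and 0.452, edgeR).
RNA polymerase I and its factors, 19 genes, had medians of -0.01 and -0.02, and the mTORC1 and TOP control list, 33 genes, had -0.09 and 0.08. The latter list holds both activators and inhibitors of mTORC1, so the sign of its median gives no direction of mTORC1 activity. In that list Ddit4, an inhibitor of mTORC1, had 1.30 ± 0.35 for the treatment labels in Flox (adjusted p = 0.489, edgeR), and Rragb, a Rag GTPase that brings mTORC1 to the lysosome, 1.12 ± 0.34 for KO-Ex over Flox-Ex (adjusted p = 0.601, edgeR). The S6 kinases, 10 genes, had medians of -0.11 and 0.00, and ribosome rescue and quality factors, 17 genes, -0.02 and 0.02.

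The ribosome of the mitochondria had medians of the other sign in some comparisons when all libraries were used. Of 78 mitochondrial ribosomal protein genes, 4 were positive for KO-Sed over Flox-Sed with a median of -0.19, where 69 of 86 cytosolic members were positive with a median of 0.09. An unadjusted p was under 0.05 for 15 of the 78, against 13.5% of all genes. In KO, 72 of 78 were positive for the treatment labels with a median of 0.15, against -0.09 for the cytosolic members. For KO over Flox in the Ex groups (-0.12) and the treatment labels in Flox (0.08) the signs were those of the cytosolic set. Mrpl37 of the mitochondrial large subunit had -0.36 ± 0.12 in the Sed groups (adjusted p = 0.216, edgeR). Nuclear genes of the respiratory chain, 95 tested, had medians of -0.29, -0.18, 0.10 and 0.23 in the order KO-Sed over Flox-Sed, KO-Ex over Flox-Ex, treatment in Flox and treatment in KO, and proteasome genes, 39 tested, had -0.08, -0.09, 0.05 and 0.03. None of these genes passed in edgeR.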

How the data were processed

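RNA was isolated from whole hearts with Trizol, depleted of rRNA with RiboZero and built into libraries with reagents from NEB, according to the labels. The deposited table holds the authors' estimated counts per gene symbol, unscaled, and FastQC, Salmon (no version) and both mm9 and mm10 appear in the submitters' processing notes. How these builds were used, which annotation was quantified, whether strand was used and how genes were summed was not found in the labels, so antisense and overlapping genes cannot be told apart. Of 55874 entries, 1696 for vectors were dropped. Library totals were 17465432 to 20467300, so that intervals on shares cover counting error only.

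Counts were rounded and fitted over all 4 groups with edgeR 4.0.16 in R 4.3.3 (TMM scaling, filterByExpr by group, robust quasi-likelihood test, Benjamini-Hochberg adjustment over 15226 genes, threshold 0.05). DESeq2 1.42.0, other scalings, no filter, a replicate block, an atrial marker covariate, the 2 compared groups alone and each library left out were alternatives. On simulated counts for KO-Sed over Flox-Sed, with 15025 genes, 89% of 100 genes changed by 1 (log2) and 97% of 100 changed by 2 were recovered, and 6.53% of calls were false. The changed genes were drawn from the better expressed ones, and genes varied independently, without the shifts that real libraries shared across genes. These rates therefore need not hold for the real libraries. No 2 libraries of the same group agreed within sampling noise; pairs from different groups were not compared.

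Members and lists were chosen with earlier results of these data known. Named were the 10 members highest per kilobase, any past the threshold, the 3 highest and 3 lowest fold changes per comparison, paralog pairs, and in other lists any gene past the threshold or else those with the smallest p. Sums with near-identical copies, the definition of a copy, the transcript lengths and the promoter motifs were chosen after values were seen. Members shown for non-overlap, the 4 tract windows, Rpsa, Rps6 and Rps19 were picked in the same way. A few genes that entered the fits and counts are not reported by name here. Coordinates and lengths are GENCODE M21 on GRCm38, and promoter sequences are RefSeq on GRCm38.p6.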

Additional observations from a re-analysis of the deposited data

Results flagged for a closer look

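Entries outside the set held a signal of the size of ribosomal protein genes. Rpl10-ps3 had a mean of 272 CPM over the 12 libraries, Gm15500, a copy of Rpl5, 260 CPM, and Gm10275, a copy of Rpl12, 157 CPM. BC004004, near-identical to Rpl21, had 139 CPM, Gm7536, near-identical to Rpl27a, 126 CPM, and Rps23-ps1 77.7 CPM. Each has at least 95% identity with the coding bases of its member, and their levels were not part of the comparisons by gene.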

How the results depend on the processing

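Of the alternatives for counts of calls, medians and shares, 303 values stayed within 1.5 times or within the replicate spread of those reported, and 9 moved. For medians that spread was 0.215 (log2), larger than several of the medians, so a median could change sign and still count as staying. The count therefore cannot show that the medians held. Without 1 library they ran from -0.08 to 0.24 for KO over Flox in Sed and from -0.24 to 0.11 for Ex over Sed in KO. For genotype averaged over treatment they ran from -0.15 to 0.01. The number of members past the threshold in edgeR was 0 in every comparison; without 1 library it ran from 0 to 2 for KO over Flox in Sed and for Ex over Sed in KO, the 2 being reached without KO-Sed 1. DESeq2 called 1 member in each of these and 1 in the interaction. With mitochondrially encoded genes left out of the total, the shares were 2.01%, 2.38%, 2.35% and 2.09% in Flox-Sed, Flox-Ex, KO-Sed and KO-Ex. Rps27 turned with its copies added, to 0.16 and -0.24 for KO over Flox in Sed and Ex, 0.36 and -0.039 for Ex over Sed in Flox and KO, and -0.40 for the interaction. Without 1 library it ran from -1.64 to 1.19 for Ex over Sed in Flox and from -1.36 to 0.25 for genotype, positive without Flox-Sed 2 in both. Averaged over treatment, Rpl10 and Rpl3 came to -0.061 and -0.031 with the atrial covariate, and Rps12 ran from -0.020 to 0.24 without 1 library. The cause was not tested. Same-numbered libraries did not pair: the correlations of their deviations ran from -0.32 to 0.31, with 6 of 18 over 0.1, and 10 of 36 for different numbers. With the replicate number as a block, no member was called and the medians were 0.07, -0.21, 0.23, -0.08 and -0.31 for the 4 comparisons and the interaction.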
